A study of Mus musculus with 2 samples.

Results

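The genes described here encode the constitutive subunits of the mouse proteasome, 14 subunits of the 20S core and 17 subunits of the 19S cap. Every probe whose symbol in the platform annotation was one of these 31 genes was taken, without the inducible immunoproteasome subunits, which gave 37 probes out of the 55681 on the array and 31 genes out of 20774 with a named probe. The probes were taken by gene name, without a limit on a measured value. The genes themselves were listed with earlier results of these data known. The arrays compared activated CD4 T helper cells of 2 genotypes, Gfi1 wild type and Gfi1 knock out, where Gfi1 encodes a zinc-finger repressor of transcription. Both cultures started from naive splenic CD4 T cells of C57BL/6 mice, sorted as CD44low, CD62Lhigh and CD25 negative, that were held for 2 days on antibodies to TCR-β at 3 µg/ml and to CD28 at 1 µg/ml. The medium of both held IL-2 at 10 ng/ml, and IL-4 and IFN-γ were blocked with antibodies at 5 µg/ml each. The deleted part of Gfi1, the age and number of the animals and any pooling are not given in the sources used here. RNA of 1 culture per genotype was hybridised to 1 array, so there is no spread between cultures, no test was possible and no p-value is given. The number of arrays limits the precision.

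The proteasome is the protease that degrades proteins tagged with ubiquitin in the cytosol and nucleus. Its 20S core is a barrel of stacked rings. The outer rings hold the alpha subunits, which gate the entrance, and the inner rings hold the beta subunits, of which Psmb5, Psmb6 and Psmb7 cut the substrate. The 19S cap sits on the end of the barrel. Its base holds a ring of ATPases, encoded by the Psmc genes, that unfold the substrate and push it into the core, and its lid removes the ubiquitin chain. In cells exposed to interferons the inducible subunits Psmb9, Psmb10 and Psmb8 replace Psmb6, Psmb7 and Psmb5, and the resulting immunoproteasome produces many of the peptides shown on MHC class I. Activated T cells grow and divide fast and make and degrade much protein.

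The start regions of 5 genes are shown first because the results turn on these genes: Psmd2 and Psmc5, the members with the lowest differences, Psmd8, the member with the highest, and Psmb6 with Psmb9, the constitutive and inducible subunits of 1 position in the ring. The sequences come from RefSeq (build GRCm38.p6), 250 bases before the transcription start, written 5′ to 3′ on the gene's own strand. They lie at chr16:20651402-20651651 (Psmd2, + strand), chr11:106255935-106256184 (Psmc5, + strand), chr7:29180674-29180923 (Psmd8, - strand), chr11:70525107-70525356 (Psmb6, + strand) and chr17:34187331-34187580 (Psmb9, - strand). Capitals mark, on either strand, the ETS core CCGGAA, the GC box GGGCGG, the CCAAT box CCAAT and the antioxidant response element core TGACNNNGC.
Psmd2: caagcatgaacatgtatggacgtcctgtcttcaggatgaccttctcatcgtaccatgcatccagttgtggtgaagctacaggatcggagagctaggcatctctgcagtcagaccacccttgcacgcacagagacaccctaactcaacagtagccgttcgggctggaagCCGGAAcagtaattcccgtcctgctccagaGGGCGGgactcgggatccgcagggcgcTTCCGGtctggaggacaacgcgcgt
Psmc5: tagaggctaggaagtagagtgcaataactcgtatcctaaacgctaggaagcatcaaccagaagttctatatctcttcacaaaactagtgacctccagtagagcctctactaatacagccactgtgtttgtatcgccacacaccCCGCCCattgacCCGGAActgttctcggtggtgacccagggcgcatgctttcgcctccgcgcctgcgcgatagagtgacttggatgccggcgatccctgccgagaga
Psmd8: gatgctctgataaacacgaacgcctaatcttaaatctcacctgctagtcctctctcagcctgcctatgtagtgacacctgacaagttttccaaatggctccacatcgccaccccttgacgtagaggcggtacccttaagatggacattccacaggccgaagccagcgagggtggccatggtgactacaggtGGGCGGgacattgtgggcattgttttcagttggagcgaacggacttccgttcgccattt
Psmb6: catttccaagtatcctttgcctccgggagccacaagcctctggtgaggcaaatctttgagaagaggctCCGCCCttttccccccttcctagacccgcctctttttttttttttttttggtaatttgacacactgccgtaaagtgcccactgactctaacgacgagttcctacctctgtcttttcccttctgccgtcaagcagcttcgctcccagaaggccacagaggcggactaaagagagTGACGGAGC
Psmb9: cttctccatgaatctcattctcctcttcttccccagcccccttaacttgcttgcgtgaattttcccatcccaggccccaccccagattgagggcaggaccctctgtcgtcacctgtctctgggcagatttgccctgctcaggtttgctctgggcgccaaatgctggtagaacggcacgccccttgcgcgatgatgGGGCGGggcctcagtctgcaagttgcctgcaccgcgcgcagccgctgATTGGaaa
In these windows Psmd2 held 2 ETS cores, which began 82 and 25 bases before the start, and Psmc5 held 1, which began 95 bases before it. Psmd8, Psmb6 and Psmb9 had no match to these letters. All 5 windows held 1 GC box. The antioxidant response element core, the kind of site bound by NFE2L1, the factor that drives proteasome genes when proteasomes are short, occurred among these 5 genes in Psmb6, ending on the last base before the start. Psmb9 had a CCAAT box 8 bases before its start.

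Several facts about the libraries bear on every direction below. Pairs of signals are given in intensity units, the library labelled wild type first and the library labelled knockout second. Gfi1 itself read 4260 and 18100 units (log2 difference 2.05), higher in the library labelled knockout. This goes against the label unless the probe targets sequence outside the deletion, whose position relative to the probe is unknown here, so the libraries are called by their labels. Sex-linked transcripts differed as well: Xist read 447 and 3.86 units and Eif2s3y 2.91 and 3870 units. The labelled CD4 T cell was checked against 10 markers. Of these, 9 were detected, and 8 of the 9 were lower in the library labelled knockout (88.9%), against 58.4% of all detected genes. The signals of the 9 summed to 196000 against 158000 units. Cd4 read 2320 and 2150 units (log2 difference -0.14) and Cd3e 20900 and 15900 units (-0.43). Themis went the other way, at 196 and 321 units (0.68 ± 0.0033, SD over 2 probes). Most detected markers of other cells were higher in the library labelled knockout, where 41.6% of all detected genes were higher. Of the CD8 T cell and NK cell list, 10 of 10 markers were higher in the library labelled knockout (sum 1890 against 4860 units). Of them Cd8a, Klrk1, Klrb1c and Ncr1 were under the detection floor on the other array, so these could only count as higher. Eomes, at 649 and 1840 units, and Nkg7, at 968 and 2080 units, made up most of both sums. Of 10 B cell markers 7 were detected and 6 of them were higher (527 against 1130 units). Ebf1 was under the floor on the array labelled wild type and could only count as higher. Most of the difference between these sums came from Ms4a1 (18.9 and 221 units) and Blnk (30.6 and 386 units). Cd79b was lower, at 281 and 256 units. Of 10 myeloid markers 6 were detected and 5 were higher (451 against 1070 units). Mpeg1 and Cd68 were under the floor on the array labelled wild type and could only count as higher. Csf1r, at 122 and 121 units, and Itgam, at 161 and 157 units, differed little. The part of other cells, of sex and of the CD4 T cell share in the proteasome values was not tested. In bulk RNA, fewer cells of a type and less RNA per cell cannot be told apart.

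All 31 genes were bright on both arrays. Their signals ran from 2500 to 67000 units on the array labelled wild type and from 2740 to 68400 units on the one labelled knockout, far above the floor of 14.2 and 14.6 units, the median of each array. Psmb2 gave the lowest signal and Psma2 the highest, but signals of different probes are not comparable as transcript levels. Differences are given as log2 of the library labelled knockout over the library labelled wild type, after each array was divided by its 75th percentile (263 and 269 units). An equal raw signal therefore gives a difference slightly below 0.

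**Figure D1:**
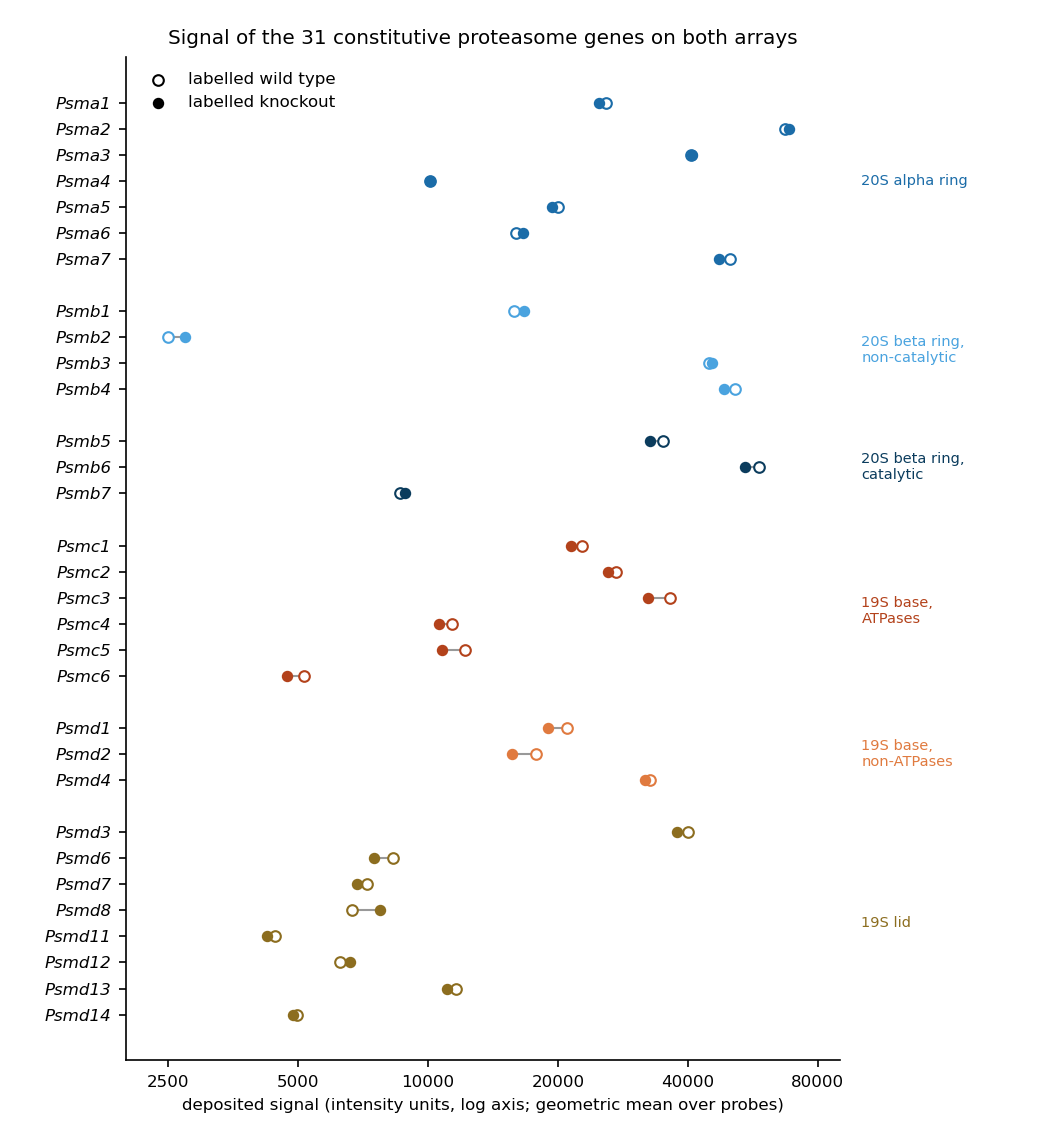
Deposited signal (intensity units, log axis) of each of the 31 genes, grouped by role, with an open circle for the library labelled wild type and a filled circle for the library labelled knockout. The circles of a gene lie close together everywhere; the filled circle is to the left for every gene of the 19S base and clearly to the right for Psmd8, at 6670 and 7760 units.

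The constitutive proteasome differed little between the libraries. The differences ran from -0.21 (Psmd2) to 0.19 (Psmd8), with a median of -0.10, against -0.05 over all 13417 detected genes and -0.07 over the 3306 genes of at least 2500 units on an array. No member of 31 was 1.2-fold higher or lower: 0 were at least 1.2-fold higher, against 17% of all detected genes, and 0 at least 1.2-fold lower, against 17.2%. Among the genes of at least 2500 units, a background chosen after the data were seen, these shares were 9.56% and 9.98%. At 1.1-fold 1 member was higher, against 25% of all detected genes and 15.2% of those of at least 2500 units. At the same fold 8 members were lower (25.8%), against 34.1% and 31.6%. That count was 5 with quantile normalization and without scaling, and 3 with cyclic loess. At 2-fold the members counted 0 each way, against 3.61% of all detected genes higher and 1.53% lower.

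The members were also more tightly spread than genes at large. The distance between their quartiles was 0.12, against 0.33 over all detected genes and 0.21 over the genes of at least 2500 units. Of the 31 genes, 26 lay below 0 and 5 above it, so 83.9% were lower, where 58.4% of all detected genes were lower and 41.6% higher, and 66.6% of those of at least 2500 units were lower and 33.4% higher. This split depends on how the arrays are scaled. With quantile normalization, with cyclic loess and without scaling, 21 members were lower and 10 higher, and with cyclic loess 47.5% of all detected genes were lower. Set against the median of all detected genes in place of 0, 21 of the 31 lay below it and 10 above it.

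**Figure D2:**
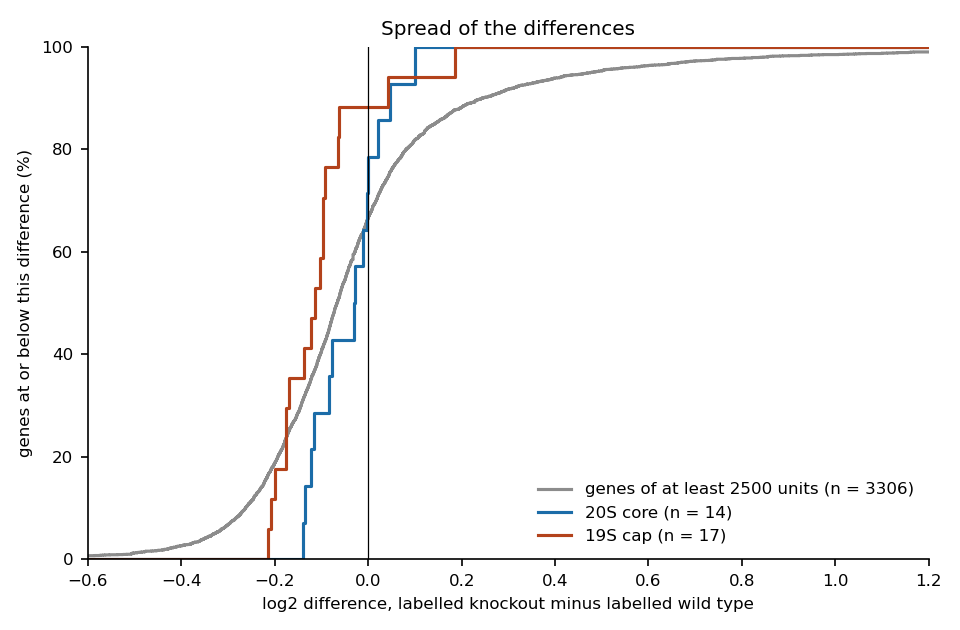
Share of genes (%) at or below each log2 difference, for the 14 genes of the 20S core, the 17 genes of the 19S cap and the 3306 genes of at least 2500 units. Both proteasome curves climb within -0.21 and 0.19, while the grey curve has long tails; the medians are -0.03 for the core, -0.11 for the cap and -0.07 for the grey curve.

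Within the arrays repeated spots varied little at these signals. For probes with 10 spots each, repeated spots differed with a median SD of 0.048 at 500 to 5000 units (103 probes) and 0.039 at 5000 units and above (40 probes). The 6 members with 2 probes, Psma4, Psmb5, Psmc1, Psmc2, Psmc3 and Psmd12, had SDs between probes of 0.012 to 0.070. Over 759 genes of at least 2500 units with several probes, the SD between probes had a median of 0.045 and a 95th percentile of 0.27. That percentile exceeds the size of any member's difference, and 25 of the 31 members have 1 probe. These SDs cover spots and probes alone, not cultures. In the order of the 31 differences, 28 of the 30 gaps between neighbours were smaller than the spot SD of 0.039, so most neighbours in this order cannot be separated. The largest gap, 0.086, lay between Psmb2 and Psmd8. Over the 31 members the difference and the mean log2 signal had a Pearson r of -0.25 and a Spearman rho of -0.22, a description of genes that share these 2 arrays.

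The 19S base, the part of the cap that contacts the core, lay lowest. All 9 of its genes were lower in the library labelled knockout, all 9 also below the median of all detected genes, with differences from -0.21 to -0.06 and a median of -0.17. Lower values were found for 58.4% of all detected genes and for 66.6% of those of at least 2500 units. At least 1.1-fold lower were 1 of 8 genes in the lid and 1 of 14 in the core. In the base it was 6 of 9, against 34.1% of all detected genes and 31.6% of those of at least 2500 units. This count depends on the scaling: it was 4 of 9 with quantile normalization and without scaling, and 3 of 9 with cyclic loess (Psmc3, Psmc5 and Psmd2), where 24.6% of all detected genes were that much lower. Psmc4 lies at the limit itself. The base was singled out after its values were seen. Psmd2, which encodes the scaffold subunit that receives ubiquitin-carrying shuttle proteins, read 17800 and 15700 units, a difference of -0.21. Psmd1, the other large scaffold of the base, read 21000 and 19000 units (-0.18). Psmd4, which encodes a ubiquitin receptor, differed least in the base, with 32600 and 31900 units (-0.06).

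The 6 ATPase genes, whose products form the unfolding ring, lay between -0.21 and -0.10, with a median of -0.15. Psmc5 read 12200 and 10800 units (-0.21). Psmc3 read 36300 and 32400 units as a geometric mean of its 2 probes, with a difference of -0.20 ± 0.016 (SD over 2 probes). Both probes of Psmc3 thus gave the same reading to within the spot SD. Psmc6 followed with 5180 and 4710 units (-0.17) and Psmc4 with 11400 and 10600 units (-0.14). Psmc1 and Psmc2 stood at -0.11 ± 0.012 and -0.10 ± 0.070 (SD over 2 probes each). The library labelled knockout was the lower one for each of these 6 genes, and under all 14 processing settings tried every gene of the base stayed below 0. Other floors, all probes, the median over probes and updated symbols left every member's value as it was, so fewer settings bear on a sign.

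The 19S lid, which holds the deubiquitinase, was mixed. Its 8 genes had a median of -0.09, with 6 lower (75%) and 2 higher. Lower values were found for 58.4% of all detected genes and for 66.6% of those of at least 2500 units, near the share in the lid. Psmd14, the metalloprotease that cuts the ubiquitin chain off the substrate, read 4980 and 4880 units (-0.06), and under cyclic loess its difference was -0.0018. Its inactive partner Psmd7 read 7220 and 6870 units (-0.10). Psmd6 was the lowest of the lid, with 8290 and 7510 units (-0.18). The scaffold subunits Psmd3, Psmd13 and Psmd11 stood at -0.12, -0.10 and -0.09.

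Psmd8 had the highest difference of the 31 genes. It encodes a lid subunit that joins late in assembly, and its only probe gave 6670 and 7760 units, a difference of 0.19. It was at least 1.1-fold higher, as were 25% of all detected genes; with cyclic loess Psmb2, at 0.16, was past that limit too. Its difference stayed between 0.18 and 0.24 over the 14 settings. Psmd12, another lid scaffold, stood at 0.043 ± 0.018 over its 2 probes, also above 0 under every setting.

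**Figure D3:**
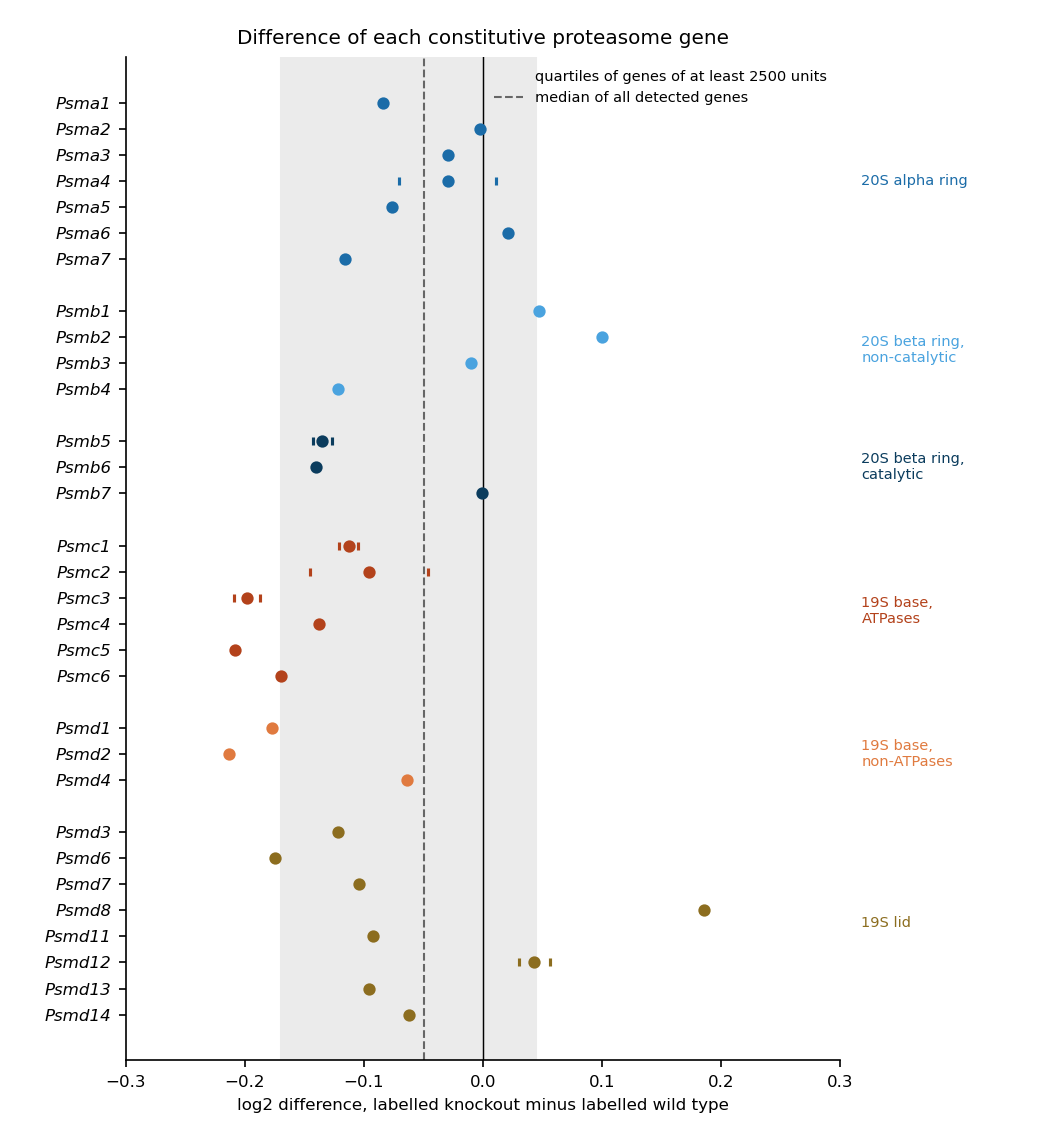
Log2 difference (labelled knockout minus labelled wild type) of each gene, grouped by role; circles are genes, small ticks the separate probes of genes with 2 probes, the dashed line the median of all detected genes (-0.05) and the grey band the quartiles of the genes of at least 2500 units. All 9 genes of the 19S base lie left of the dashed line, the genes of the alpha ring lie on both sides of it, and Psmd8 lies farthest right.

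The 20S core lay closer to 0 than the cap. Its 14 genes had a median of -0.03, with 11 lower (78.6%) and 3 higher, against a median of -0.11 with 15 lower (88.2%) and 2 higher for the 17 genes of the cap. Of all detected genes 58.4% were lower, and of those of at least 2500 units 66.6%. The count for the core depends on the scaling. Its genes Psma2, Psma3, Psma4, Psmb3 and Psmb7 lay above 0 with quantile normalization, with cyclic loess and without scaling. No gene of the cap changed sign between settings. Below the median of all detected genes lay 6 of the 14 core genes and 15 of the 17 cap genes. The ranges overlapped, from -0.14 to 0.10 in the core and from -0.21 to 0.19 in the cap, and the difference between core and cap could not be tested.

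The alpha ring, the outer gate of the core, had a median of -0.03 over 7 genes. Psma7 read 50000 and 47200 units (-0.12) and was the lowest of them, followed by Psma1 (-0.08) and Psma5 (-0.08). Psma2, one of the subunits at the gate, read 67000 and 68400 units, a scaled difference of -0.0027. Psma6 read 16000 and 16600 units (0.021), Psma3 40700 and 40800 units (-0.03), and Psma4 stood at -0.03 ± 0.058 over its 2 probes. The sign of Psma2, Psma3 and Psma4 changed with the scaling or the choice of probe, so no direction is given for them.

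The non-catalytic beta subunits spread around 0. Psmb2 read 2500 and 2740 units (0.10) and Psmb1 15800 and 16700 units (0.047). Psmb4, which takes part in joining the rings of the core, read 51500 and 48400 units (-0.12). Psmb3 stood at -0.01, with a sign that changed with the scaling. Psmb1 and Psmb2 lay above 0 under all 14 settings, and Psmb4 below it.

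Of the catalytic beta subunits, Psmb5, which carries the chymotrypsin-like activity, read 35000 and 32600 units, with a difference of -0.13 ± 0.012 over 2 probes. Psmb6, which carries the caspase-like activity, read 58400 and 54200 units (-0.14). Psmb7, which carries the trypsin-like activity, read 8640 and 8830 units (-0.0012), and its sign changed with the scaling. Psmb5 and Psmb6 were thus lower by similar amounts and Psmb7 lay at 0. The single probe of Psmb6, like that of Psmd11, lies on a spot with a feature number above 50000, a range in which the share of bright spots (at least 500 units) past 2-fold was 2.45%, and 1.91% outside it.

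**Figure D4:**
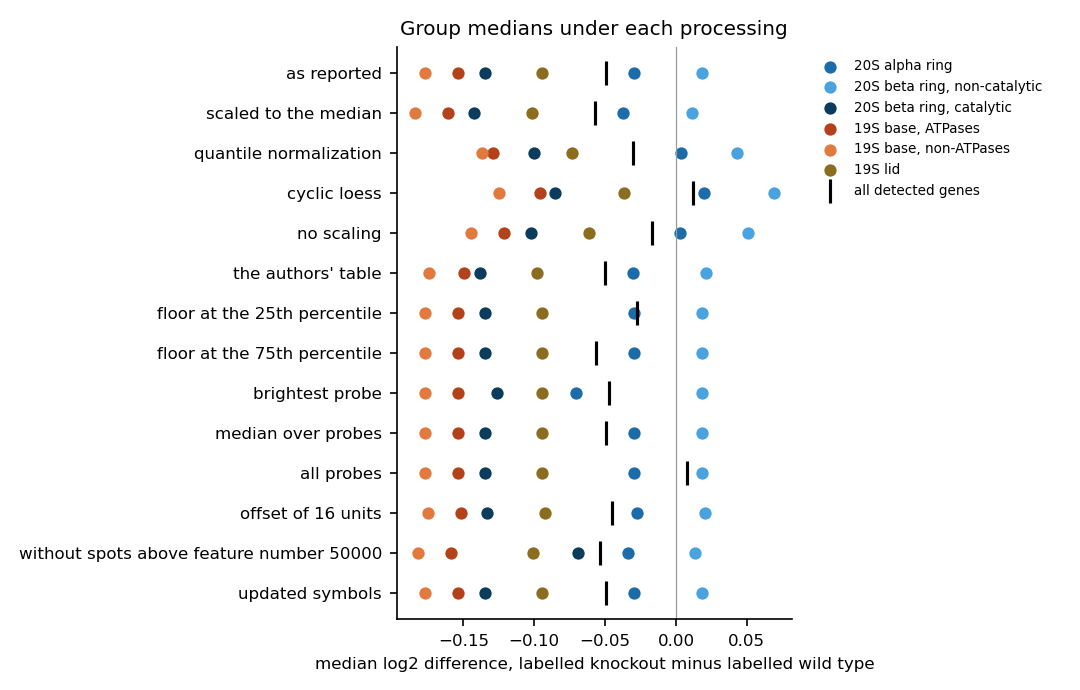
Median log2 difference of each role group (coloured circles) and of all detected genes (black bar) under the reported processing and 13 alternatives. The medians of the 19S base, the 19S lid and the catalytic beta subunits stay left of 0 in every line, the alpha ring crosses 0 with other scalings, and the non-catalytic beta subunits stay right of 0.

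Of the inducible subunits, which take the ring positions of the catalytic ones, Psmb9 and Psmb8 stood apart from their partners, and Psmb10 did not. Psmb9, the partner of Psmb6, read 9710 and 20100 units (1.02, or 2.02-fold). Psmb8, the partner of Psmb5, read 22600 and 28000 units (0.28). Psmb10, the partner of Psmb7, read 24200 and 25200 units (0.026). Psmb9 stood above Psmb6 by 1.16 and Psmb8 above Psmb5 by 0.41. Between Psmb10 and Psmb7 the gap of 0.027 was smaller than the spot SD of 0.039, so no direction is given for it. These gaps ranged from 1.16 to 1.17, from 0.40 to 0.42 and from 0.013 to 0.030 over the settings tried. Dividing an array by another constant cannot change a gap, and other floors left the gaps as they were. Few of the settings therefore bear on these ranges. Psmb9, like Psmb6, was read on a spot with a feature number above 50000, so leaving out such spots removes this pair.

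The activators of the proteasome split by type. Psme1 and Psme2, which form the interferon-inducible PA28 ring, stood at 0.17 and 0.45 ± 0.22 (SD over 3 probes). All 3 probes of Psme2 were higher in the library labelled knockout, at 0.28, 0.38 and 0.69, the last on a dim probe of 116 and 192 units. Psme3, the nuclear activator PA28 gamma, read 2940 and 2460 units (-0.29), and Psme4, which encodes PA200, stood at -0.18 ± 0.015 over 2 probes. The first pair was therefore higher and the second pair lower.

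The assembly chaperones resembled the constitutive subunits in size. Of the 8 detected, 5 lay below 0 (62.5%), near the 58.4% of all detected genes. Their median was -0.08. Past 1.2-fold lay 0 of the 8 each way, against 17% of all detected genes higher and 17.2% lower. Psmg3 and Psmg1, which each guide alpha subunits, stood at -0.19 and -0.18, Psmd5, a chaperone of the base, at -0.17, and Psmg2 at -0.10. Pomp, which helps the beta ring to close, stood at 0.032 ± 0.091 over 2 probes and Psmg4 at 0.044.

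Other cap subunits and bound proteins had a median of -0.08 over 6 detected genes. The ubiquitin receptor Adrm1 read 6700 and 6260 units (-0.13). The deubiquitinases Usp14 and Uchl5 lay near 0, at 0.021 and -0.04. Past 1.2-fold were the ubiquitin ligase Ube3c, with 530 and 436 units (-0.31), and the dim Txnl1, with 129 and 103 units (-0.36). The annotation lists Sem1, a small lid subunit, under its older symbol Shfm1, and it read 62100 and 61500 units (-0.05). Ecpas, listed there as AI314180, read 233 and 220 units (-0.12).

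The listed regulators of proteasome gene transcription, with Akirin2 counted among them, had a median of 0.12 over 5 genes, the value of Akirin2. Of the 5 genes 4 were higher and 1 lower, against 41.6% and 58.4% of all detected genes. Nfe2l1, the factor that raises proteasome genes when degradation is blocked, read 200 and 220 units (0.10). Its relative Nfe2l2 read 1300 and 1570 units (0.24), Ngly1, the enzyme that removes sugars from NFE2L1, stood at 0.20 on a dim probe of 54.2 and 63.7 units, and Akirin2, a factor for import of proteasomes into the nucleus, stood at 0.12. Ddi2, the protease that activates NFE2L1, was lower, at -0.18 ± 0.0014 over 2 probes. Past 1.2-fold lay 0 of the 5 each way, against 17% of all detected genes higher and 17.2% lower.

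Upstream of the proteasome, the p97 unfoldase gene Vcp read 22600 and 19900 units (-0.22), and its cofactor Nploc4 stood at 0.022. Ufd1, of the same list, is annotated under its older symbol Ufd1l. It stood at -0.19 ± 0.25 over 2 probes and is outside the counts below. The shuttle factors went both ways: Ubqln1 stood at 0.20 and Ubqln4 at 0.18, while Rad23b stood at -0.28 ± 0.32 over 2 probes, of which the brighter, at 4290 and 4240 units, gave -0.05. Of the ubiquitin-activating enzymes Uba6 was measured, and its 2 probes gave 0.53 and -0.43. Over all 33 detected genes of these pathway lists, out of 45 listed, 3 were at least 1.2-fold higher (Psmb8, Psmb9 and Psme2) and 4 at least 1.2-fold lower (Psme3, Ube3c, Txnl1 and Rad23b), shares of 9.09% and 12.1%, against 17% and 17.2% of all detected genes.

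**Figure D5:**
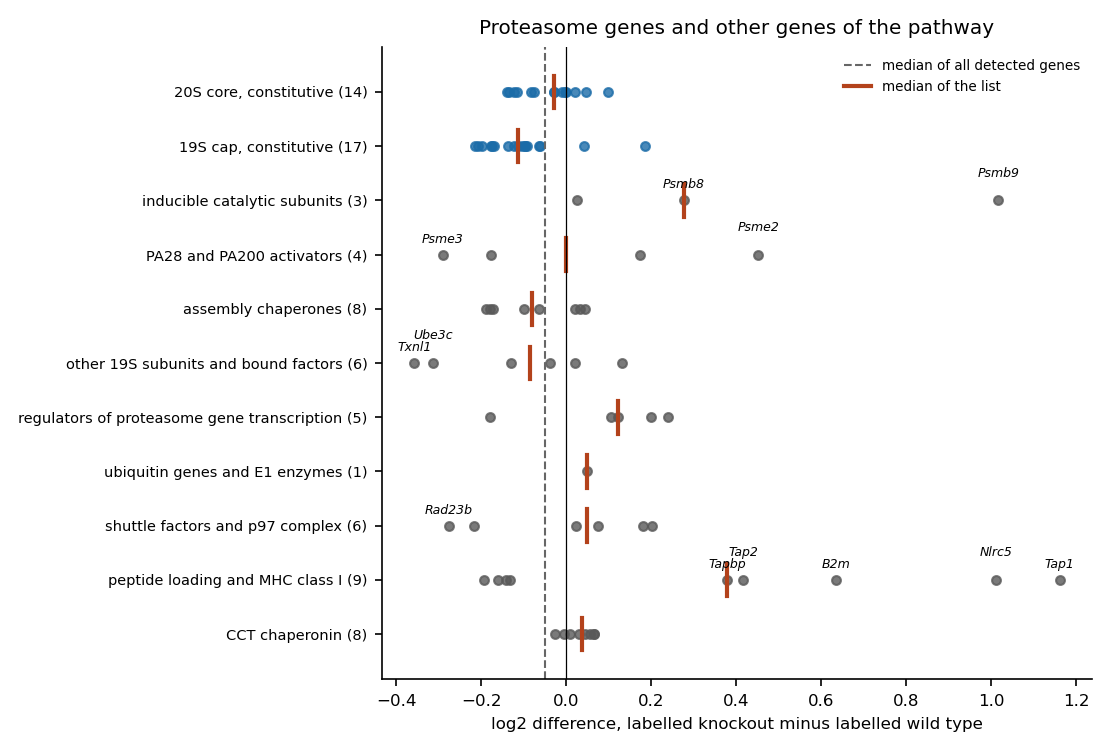
Log2 difference (labelled knockout minus labelled wild type) of the constitutive subunits (blue) and of the detected genes of each other list (grey, number in brackets), with the list's median as a vertical bar and the median of all detected genes as a dashed line; genes past 1.2-fold are named. The blue points stay within -0.21 and 0.19, while Psmb9 lies at 1.02 and Psme2 at 0.45.

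The start regions were then compared over all members in the table, 25 of the 31, of which 11 encode core and 14 cap subunits. Psmb1, Psmb2, Psmb7, Psmc3, Psmd3 and Psmd7 are the others. In all, 9 motifs were searched on both strands in the 250 bases before the start, and this choice was made with the values known. The ETS core CCGGAA occurred in 12 of the 25 members (48%), against 13.6% of the 27025 genes in the table and 29.2% of the 5516 genes that read at least 500 units here. By part it occurred in 10 of the 14 cap genes, among them Psmd2, Psmc5, Psmc6 and Psmd6, and in 2 of the 11 core genes, Psma5 and Psma6. Members with it had a median difference of -0.10 (from -0.21 to 0.043) and the other 13 a median of -0.08 (from -0.18 to 0.19), so the 2 sets overlapped almost fully.

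The other motifs are given with their share of all genes and then of the genes of at least 500 units. The GC box GGGCGG occurred in 14 of the 25 members (56%), against 35.4% of all genes and 64.6% of the genes of at least 500 units. The CCAAT box occurred in 10 members (40%, against 37.5% and 40.8%) and the antioxidant response element core TGACNNNGC in 4, Psmb5, Psmb6, Psmc6 and Psmd12 (16%, against 11.5% and 14.1%). The TATA box TATAAA occurred in 3 members (12%, against 14.3% and 7.23%), the interferon response element (GAAA repeated after NN) in 2, Psmb3 and Psmd4 (8%, against 3.46% and 3.32%), and the E-box CACGTG in 1 (4%, against 6.86% and 10.8%). The STAT site TTCNNNGAA and the AP-1 site TGANTCA were in 0 of the 25, against 8.13% and 7.82% of all genes and 6.89% and 4.53% of the genes of at least 500 units. The ETS core can lie inside the STAT site, and the AP-1 site and the antioxidant response element core can share bases. The windows of the members had a median G and C content of 54.8%, against 52.4% over the table and 60% for the genes of at least 500 units. A match says that the letters are there and not that a factor binds.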

How the data were processed

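The 2 cultures gave 1 array each, hybridised in a single colour (Cy3) with labelled RNA made from 100 ng, per the labels' protocols. Agilent Feature Extraction 11.5.1.1 was used, per the submitters' processing notes. The deposited intensity of each spot, under a column headed Raw, was taken on its linear scale; its background correction and flags are not given in the sources used here. A further table of intensity by the authors, close to these signals times 2.27 and 2.26, linear and not centred (column medians 34.4 and 34.8), was an alternative. How its constants were chosen stays unknown.

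Repeated spots of a probe were averaged as log2 signals, and from them was taken the array's own 75th percentile (55681 probes). Probes above an array's median were taken as detected, dimmer values were set to that floor, and a gene is the mean of its probes detected on at least 1 array. Names came from the platform annotation (31465 spots with 1 symbol, 27840 without). Updating the symbols through RefSeq accessions altered 3282 spots and no member. All 31 members may be named, with the genes of the pathway, comparison and marker lists and Gfi1. Xist, Eif2s3y and the promoters shown were added after their values were seen. The members and lists were chosen with earlier results of these data known.

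The steps were run on a simulated second array with known gene shifts, spot noise and a constant gain. It held no bias that depends on signal, no differences between probes and no spread of cultures. It therefore cannot show how far small differences between the cultures can be trusted. Alternatives were other scalings (median, quantile, cyclic loess with span 0.3, none), the authors' table, other floors, other ways to combine probes, an offset of 16 units, no spots above feature number 50000, updated symbols, and folds of 1.1 and 1.5. Scripts ran under Python 3.11.15 (pandas 2.3.3, numpy 2.4.6, matplotlib 3.10.9, statsmodels 0.14.6).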

Additional observations from a re-analysis of the deposited data

How the results depend on the processing

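With 1 array per genotype no replicate could be left out, and neither a paired nor an unpaired test was possible. Of the 31 members, 21 were lower and 5 higher under all 14 settings, except that Psmb6 and Psmd11 have no value without spots above feature number 50000; Psma2, Psma3, Psma4, Psmb3 and Psmb7 changed sign. Other floors, all probes, the median over probes and updated symbols could not change a member's sign, because they left every member's value as it was. The members' median ran from -0.10 to -0.04 and the median of all genes from -0.06 to 0.012. With cyclic loess, with quantile normalization, without scaling and relative to the median of all genes, the last chosen after the data were seen, 10 members were higher in place of 5. At 1.1-fold in place of 1.2-fold, 1 member was higher and 8 lower, with Psmc4 at the limit itself. These 1.1-fold counts were taken under every setting after the data were seen. The 8 became 5 with quantile normalization and without scaling and 3 with cyclic loess, where the 1 higher became 2 and the 6 lower genes of the 19S base became 3. Cyclic loess moved the medians of the PA28 and PA200 activators to 0.059, the assembly chaperones to -0.021, the regulators to 0.18, the shuttle factors to 0.11 and Uba6 to 0.12. Uba6 stood at 0.53 with its brightest probe and at 0.28 with a floor at the 75th percentile. Without spots above feature number 50000 the median was 0.15 for the inducible subunits, which lose Psmb9, and -0.069 for the catalytic ones, which lose Psmb6. Differences smaller than the spread of cultures cannot be told from 0 with these 2 arrays.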

Other observations

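Part of the listed genes for antigen presentation differed more than any constitutive subunit. Of 9 listed genes of MHC class I and peptide loading, 5 passed 1.2-fold upward and 0 downward, beside 17% and 17.2% of all detected genes, and the median was 0.38. Tap1, a chain of the peptide transporter, read 1400 and 3190 units (1.16), Nlrc5, the activator of MHC class I genes, stood at 1.01 ± 0.25 over 2 probes, and B2m read 41500 and 65900 units (0.64). Erap1 and the chaperones Calr, Canx and Pdia3 lay at -0.14, -0.13, -0.16 and -0.19, within the range of the constitutive subunits. The windows of Psmb9 and Tap1 in the RefSeq table, each of 300 bases, lie on opposite strands and share 275 bases, and both genes were more than 2-fold higher in the library labelled knockout.

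The CCT chaperonin, another large complex of the cytosol with subunits in a ring, was even more uniform. Its 8 genes lay between -0.03 and 0.067 with a median of 0.038, all 8 above the median of all detected genes (-0.05). Tcp1 read 23900 and 25600 units (0.067) and Cct8 23000 and 23100 units (-0.03). The 31 constitutive proteasome genes lie on 14 chromosomes, with at most 6 on any of them.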
